A study of Mus musculus with 32 samples.

Results

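The livers of Nudt7-/- (KO) males fed a Western diet (WD) were compared with the livers of WT males fed the same diet, across all genes with enough reads to test. The comparison used the 4 KO and 4 WT libraries that the labels give as male and WD, 8 of the 32 liver libraries in the series, which holds 4 libraries for each combination of sex, genotype and diet. KO mice lacked exons 3 and 4 of Nudt7 in every tissue. This allele arose during CRISPR/Cas9 editing of FVB zygotes, and the line came from a single mosaic founder that was crossed back to C57BL/6J, the strain given for all libraries. WT controls were littermates and carried no transgene. Both groups ate the WD, with 41% of its energy from fat and 0.2% cholesterol, from 6 weeks of age until harvest at 17 to 20 weeks. Where the control diet (CD) enters below, 10% of its energy came from fat and it held no cholesterol. Mice of the study were harvested fed or fasted, and which state applied to these livers was not given in the sources used here. Each library was taken as 1 mouse.

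NUDT7 is a hydrolase of the peroxisome that splits CoA and acyl-CoA, the activated form in which the liver oxidizes fatty acids, builds sterols and conjugates bile acids. Peroxisomes shorten very long chain and branched fatty acids and complete the side chain of bile acids, and both routes run on acyl-CoA. Other enzymes of CoA breakdown sit elsewhere in the cell or beside it: NUDT8 in mitochondria, NUDT19 in peroxisomes and FIT2, the product of Fitm2, in the endoplasmic reticulum.

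The Nudt7 gene spans chr8:114133557-114154739 on the plus strand of GRCm38. The guide RNAs used to make the allele are shown because they were aimed at the deleted region. They are written 5′ to 3′ with the protospacer adjacent motif in capitals.
5g: tcccaacccaacatagtggaAGG
3g: tggaattactccctaaccccAGG
The 20 bases of 3g matched the minus strand at chr8:114152411-114152430, inside exon 4 of the model ENSMUST00000073521 and past the 3′ end of the other 4 annotated models, the last of which stops at 114152312. Guide 5g matched none of the 5 transcript models of the annotation, and its position in the genome was not analysed here. All 5 models contain an exon that starts at 114147895, the third exon of most of them.

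Nudt7 mRNA was lower in every KO library than in every WT library, but it was not at 0. Its level, in CPM (counts relative to the library total, scaled by the TMM factors of edgeR), was 569, 363, 480 and 588 in the 4 WT livers. In the 4 KO livers it was 91.7, 39.9, 153 and 56.96 CPM. The groups did not overlap, and the KO mean was 0.171 of the WT mean (85.4 ± 50.0 against 500.0 ± 103 CPM, SD, n = 4). The log2 fold change was −2.55 with a standard error of 0.42 and an adjusted p of 0.317 in the quasi-likelihood test of edgeR. In DESeq2 with offsets for transcript length, the study's own kind of test, it was −3.96 with an adjusted p of 3.99e-14. The tests handle transcript length differently. The mean effective length of the Nudt7 transcripts ran from 952 to 1109 bases in WT and from 2710 to 2826 in KO livers. Length offsets did not bring a call in edgeR, which called 0 genes with them. An edgeR fit of all 32 libraries, without such offsets, gave −2.57 with an adjusted p of 0.00959, or 0.0625 without KO replicate 1. Why the tests differed was not tested. In TPM, a relative transcript abundance that is scaled for length, Nudt7 stood at 632, 433, 505 and 664 in WT and at 45.9, 16.7, 69.0 and 27.5 in KO livers.

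The reads left in KO livers were assigned almost wholly to the longest models. ENSMUST00000073521, of 3543 bases, has 2427 bases past the ends of the other models and 2309 past the 3g site. It held 719, 757, 720 and 917 counts in WT and 580, 259, 846 and 323 counts in KO livers. ENSMUST00000109109, of 2795 bases, has a first exon of 1823 bases, so that 1977 bases lie before the shared exon at 114147895. It held 828, 653, 1809 and 2086 counts in WT and 576, 276, 1156 and 359 in KO livers. These models took 14.6% and 25.2% of the counts of WT livers and 45.9% and 54.1% of those of KO livers. The other models hold 127 to 214 bases before the shared exon and none past the 3g site. ENSMUST00000066514 and ENSMUST00000147605, which took 24.5% and 32.4% of the WT counts, had 0 counts in all 4 KO libraries, and ENSMUST00000134593 had 1.39 counts in 1 of them. Salmon splits reads among overlapping models by likelihood, so these are estimates and not counts of spliced molecules.

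**Figure D1:**
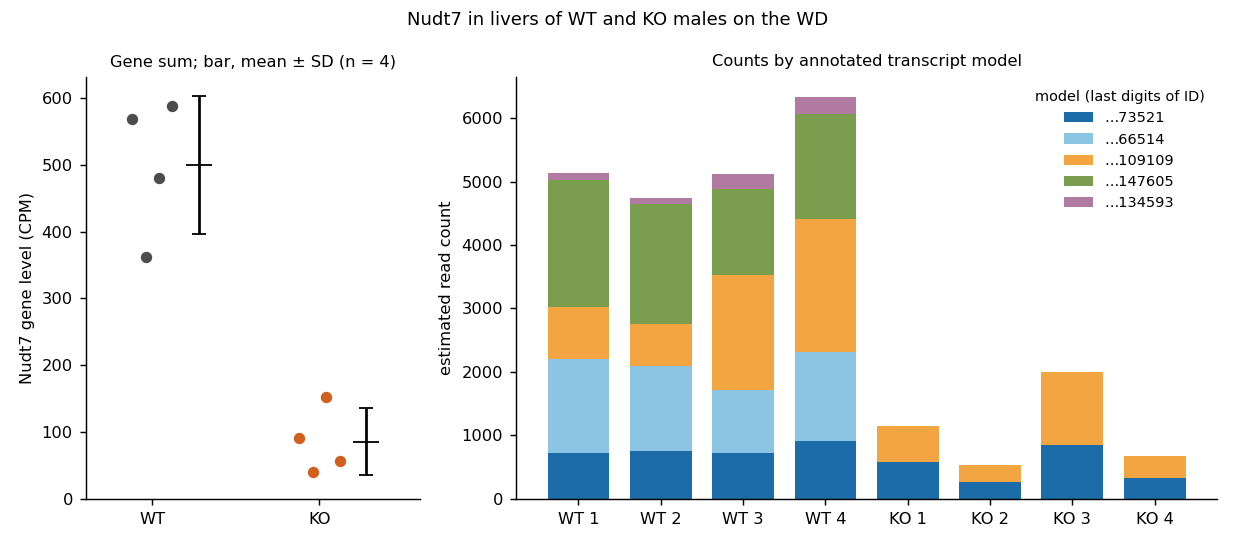
Nudt7 in the 8 livers. Left, CPM of the gene sum (y axis) by genotype (x axis), 1 point a library, with the mean and SD of 4 beside the points. Right, estimated read count (y axis) of each annotated transcript model, stacked, for each library (x axis). The KO libraries hold 39.9 to 153 CPM against 363 to 588 in WT, and their counts sit in ENSMUST00000073521 and ENSMUST00000109109.

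The related genes were close to their WT levels. Nudt8 stood at 7.53, 5.96, 6.84 and 5.39 CPM in WT and 8.17, 6.04, 5.82 and 5.42 in KO livers (log2 fold change −0.01, standard error 0.17). Nudt19 stood at 34.2, 36.7, 33.3 and 31.4 CPM in WT and 30.8, 29.7, 29.5 and 28.1 in KO livers. Its groups did not overlap, with KO the lower, but the difference of −0.20 on the log2 scale (standard error 0.08) missed the threshold in edgeR (adjusted p = 0.503). Fitm2 had a log2 fold change of 0.10 with a standard error of 0.25, and its sign turned with the library left out.

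The 8 libraries held 10140048 to 14119439 counts each, and 12319 genes were tested, those that reached 10 counts in 4 or more of them. Errors and tests rest on the spread of these 8 libraries. KO replicate 1 stood apart from the other KO libraries, with the most extreme value on both leading principal components (29.1% and 18.2% of the variance) and the lowest mean Spearman correlation with its own group (0.978). KO replicate 2 was closer to the WT livers (mean Spearman correlation 0.985) than to its own group (0.981). DESeq2 calls of genes described below that were lost without KO replicate 1 are given both ways, and DESeq2 was not run without KO replicate 2.

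Few genes passed the test. At an adjusted p under 0.05, edgeR called 2 of 12319 genes, or 0.0162%, with 1 higher and 1 lower in KO livers (0.00812% each). DESeq2 with length offsets called 49 (0.398%), of which 33 were higher (0.268%) and 16 lower (0.13%), and both edgeR calls were among them. A model of all 32 libraries, in which the 8 groups share 1 estimate of the spread, called 39 of 13539 genes (0.288%), 30 higher (0.222%) and 9 lower (0.0665%). At an unadjusted p under 0.05, edgeR passed 1194 genes (9.69%), 718 of them higher (5.83%) and 476 lower (3.86%). That number was 2010 without KO replicate 2, 796 without KO replicate 1 and 758 without WT replicate 1. In 631 genes (5.12%) the KO and WT libraries did not overlap, with KO above WT in 337 (2.74%) and below it in 294 (2.39%). Over all genes the log2 fold change was above 0 in 6246 (50.7%) and below 0 in 6073 (49.3%), and its median was 0.003. These shares are the background for the counts given for gene groups below.

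Rassf3 and Ciapin1 were called by edgeR, by DESeq2 and in the model of all libraries. Rassf3, a Ras association domain protein of the RASSF family, stood at 85.3, 99.9, 112 and 111 CPM in WT and at 59.2, 61.7, 59.7 and 55.2 in KO livers. The highest KO liver lay below the lowest WT liver, and the log2 fold change was −0.79 (standard error 0.10, adjusted p = 0.0471 in edgeR and 1.47e-08 in DESeq2). Ciapin1, a factor of cytosolic iron-sulfur cluster assembly, stood at 20.3, 15.6, 15.7 and 17.7 CPM in WT and at 28.4, 30.7, 29.0 and 32.1 in KO livers. All 4 KO livers were above all WT livers, and the log2 fold change was 0.80 (standard error 0.10, adjusted p = 0.0471 in edgeR and 0.0219 in DESeq2). Both edgeR calls were narrow. They were lost when any of the 4 KO libraries or WT replicate 2, 3 or 4 was left out, while their log2 fold changes ran from −0.87 to −0.74 and from 0.68 to 0.88 over all alternatives. Their adjusted p ran from 1.47e-08 to 0.226 and from 1.61e-06 to 0.368 over these edgeR and DESeq2 alternatives.

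Other genes were called by DESeq2 but not by edgeR on the 8 libraries. On simulated data edgeR and DESeq2 both gave a larger share of false calls than the threshold names, DESeq2 more so. DESeq2, run there without length offsets, also recovered more of the small changes. Clec2d, a C-type lectin ligand of natural killer cell receptors, was lower in all 4 KO livers, at 87.0, 76.0, 90.6 and 80.0 CPM against 130, 122, 148 and 153 in WT (log2 fold change −0.73, standard error 0.10, adjusted p = 0.085 in edgeR and 0.000736 in DESeq2). Pyroxd2, a mitochondrial oxidoreductase, was higher, at 31.8, 22.7, 26.3 and 22.6 CPM against 12.1, 15.8, 15.1 and 14.5 (0.84, standard error 0.13, adjusted p = 0.141 and 0.00164). Gpc1, a heparan sulfate proteoglycan of the cell surface, stood at 8.08, 13.4, 15.2 and 18.9 CPM in WT and at 33.2, 26.0, 26.2 and 33.6 in KO livers, a ratio of means of 2.13 (DESeq2 adjusted p = 0.00067). Mmd2 stood at 4.10, 2.06, 3.66 and 4.37 CPM in WT and 6.50, 8.58, 9.72 and 9.51 in KO livers (log2 fold change 1.29, DESeq2 adjusted p = 0.00244). The KO and WT livers of these 4 genes did not overlap. Notch1, a receptor of cell fate signaling, and Gas6, a ligand of TAM receptors, had log2 fold changes of 0.53 and 0.68 (DESeq2 adjusted p = 0.00973 and 0.0194), and in each the KO livers lay above the WT livers. On the other side, Avpr1a, the vasopressin receptor of hepatocytes, stood at 40.9, 28.5, 28.2 and 21.9 CPM in WT and at 10.9, 15.96, 16.1 and 10.7 in KO livers (−1.15, standard error 0.21, DESeq2 adjusted p = 0.000736). Hamp, which encodes the iron hormone hepcidin, stood at 241, 229, 351 and 402 CPM in WT and 89.3, 150, 176 and 198 in KO livers (−0.997, DESeq2 adjusted p = 0.0390). Cyp26a1, which degrades retinoic acid, ran from 8.46 to 32.1 CPM in WT and from 2.00 to 7.22 in KO livers (−2.04, DESeq2 adjusted p = 0.00334). Of the 49 genes that DESeq2 called, 39 had groups that did not overlap. Without KO replicate 1 the calls of Gas6 and Hamp were lost (DESeq2 adjusted p = 0.137 and 0.0695).

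**Figure D2:**
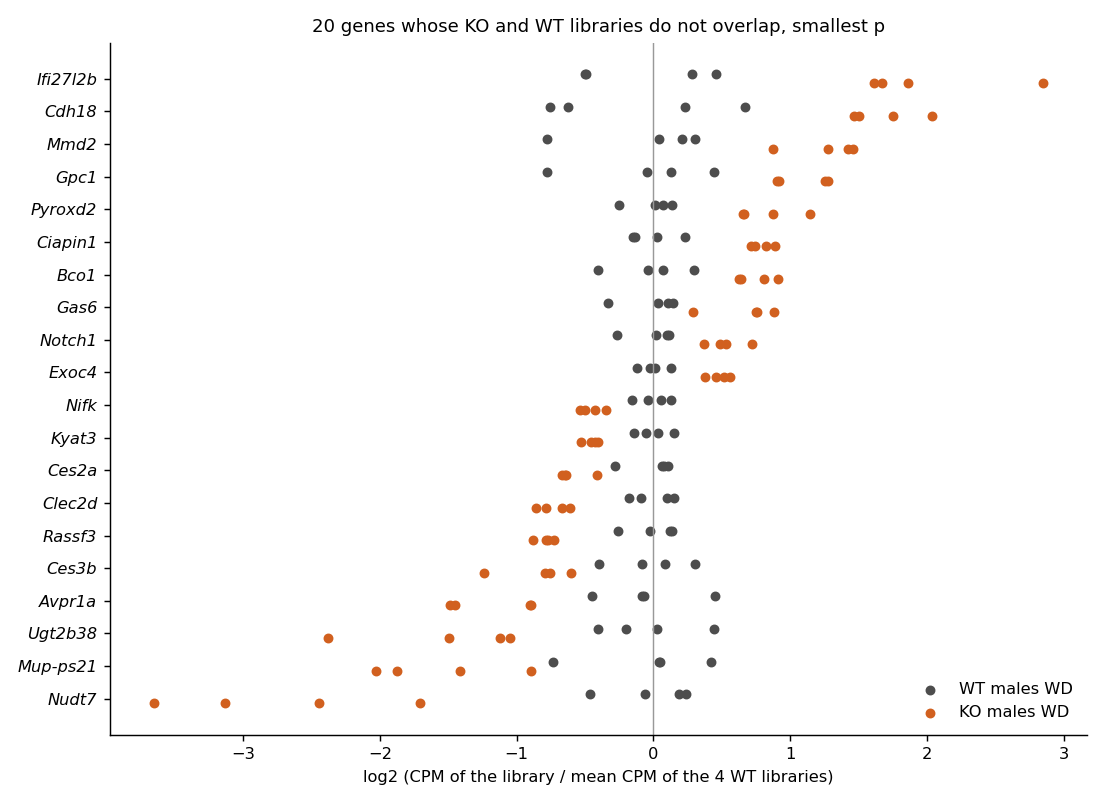
Level in each library as the log2 ratio of its CPM to the mean CPM of the 4 WT libraries (x axis), for the 10 higher and 10 lower genes (y axis) with the smallest edgeR p among genes whose groups do not overlap. Only genes with a mean log2 CPM above 0 were eligible. Grey points are WT and orange points KO livers, 4 of each. Rassf3 and Ciapin1, the edgeR calls, have tight groups, while Nudt7 shows the widest gap.

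Among the higher calls, KO replicate 1 was often the highest KO library. Of the 33 genes that DESeq2 called higher, KO replicate 1 was the highest KO library in 20 (60.6%), against 30.3% of all genes tested. In the model of all 32 libraries it was the highest in 25 of the 29 higher calls that were also among the 12319 genes (86.2%). Gpnmb, a glycoprotein of lipid-laden macrophages, stood at 62.3 CPM in that library and at 1.94, 1.301 and 1.67 in the other KO livers. Mmp12, the elastase of macrophages, stood at 54.6 CPM there and at 4.55, 4.13 and 12.3 in the others, with all WT livers between 0.554 and 1.31 CPM. Ly6d had 38.9 CPM there and 1.19 to 10.7 in the other KO livers. Cntnap1 had 22.7 CPM there and 5.20 to 8.42 in the others, and its WT livers ran from 1.68 to 3.25. Without KO replicate 1, DESeq2 with length offsets called 42 genes, 30 of them shared with the 49. Mmp12, Ly6d and Cntnap1 stayed called, at log2 fold changes of 3.19, 3.48 and 1.45 (DESeq2 adjusted p = 2.36e-06, 0.000376 and 0.0209). With that library included, DESeq2 gave 4.72, 4.72 and 2.00. The model of all libraries called 3 genes without KO replicate 1, which were Rassf3, Ciapin1 and Cntnap1. The edgeR test of the 2 groups called 0 genes without it, and the DESeq2 call of Ciapin1 moved to an adjusted p of 0.0546.

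No gene of CoA synthesis was called by edgeR or DESeq2 on the 8 libraries. Among 9 genes of CoA synthesis the median log2 fold change was 0.03, and the pantothenate kinases Pank1, Pank2, Pank3 and Pank4 lay between −0.06 and 0.03, with signs that turned between alternatives. Slc5a6, the carrier that brings the CoA precursor pantothenate into the cell, stood at 4.43, 5.04, 4.78 and 6.23 CPM in WT and at 7.61, 7.68, 9.18 and 9.76 in KO livers. All KO livers were above all WT livers, and the log2 fold change was 0.74 (standard error 0.16, adjusted p = 0.317 in edgeR with 8 libraries, 0.574 in DESeq2 and 0.0436 in edgeR with all 32, or 0.128 there without KO replicate 1). Slc25a42, the carrier of CoA into mitochondria, stood at 58.6, 77.9, 82.2 and 80.4 CPM in WT and 82.2, 82.3, 104 and 113 in KO livers (0.35, edgeR adjusted p = 0.496). These were the members of the list at an unadjusted p under 0.05, and both were higher.

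Peroxisomal and mitochondrial fatty acid oxidation stayed at the level of all genes. Of 21 genes of peroxisomal β-oxidation, 10 were above and 11 below 0, with a median log2 fold change of −0.0016 and an unadjusted p under 0.05 in 1 higher and 1 lower gene. Pecr, a peroxisomal enoyl-CoA reductase, had −0.31 (standard error 0.12, edgeR adjusted p = 0.484). The median was 0.01 for 20 genes of mitochondrial oxidation and ketogenesis, among which Cpt1a, the gate to mitochondrial oxidation, had 0.42 (edgeR adjusted p = 0.512). The ω-hydroxylases Cyp4a10 and Cyp4a14, targets of PPARα, varied within groups more than between them. Cyp4a14 stood at 58.9, 925, 111 and 664 CPM in WT and at 194, 373, 355 and 1117 in KO livers.

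Genes of sterol synthesis were lower on average, without a call for any of them. Of 20 genes of cholesterol synthesis, 19 had a log2 fold change below 0, where 49.3% of all genes did, and the median was −0.59. It was −0.37 without WT replicate 1. In the other KO comparisons the median of the list was −0.39 in males on the CD, −0.61 in females on the WD and −0.15 in females on the CD, and no difference between groups was tested for the list. At an unadjusted p under 0.05 there were 4 lower and 0 higher, and edgeR called 0 after adjustment, as did DESeq2 with length offsets. Sqle, which makes the epoxide of squalene, stood at 6.09, 1.38, 3.19 and 1.39 CPM in WT and 2.22, 0.82, 0.612 and 0.834 in KO livers. Tm7sf2, a sterol reductase, had −0.69 (standard error 0.22), and Ebp was the 1 member whose groups did not overlap (−0.17). The summed level of the 20 genes was 1871, 1106, 1822 and 1307 CPM in WT and 1464, 1512, 952 and 933 in KO livers, so that KO replicates 1 and 2 lay within the WT range. The other targets of SREBP2, the factor that drives sterol synthesis and uptake, showed the same order. All 5 were below 0, with a median of −0.87, and Stard4, a sterol carrier, had −0.88 (standard error 0.28, edgeR adjusted p = 0.464).

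Fatty acid synthesis was below 0 in 14 of 15 genes with a median of −0.30, but none had an unadjusted p under 0.05. The median was −0.0599 without WT replicate 1, −0.0899 without KO replicate 3, −0.0675 without KO replicate 4 and −0.50 without WT replicate 2. Scd1, the stearoyl-CoA desaturase, chosen here after its values were seen, stood at 18557, 3606, 16646 and 21907 CPM in WT and at 19196, 23706, 3417 and 1931 in KO livers. The low livers were WT replicate 2 and KO replicates 3 and 4, so the groups overlapped over almost their whole range. Of 9 LXR targets and genes of sterol efflux, 7 were above 0 with a median of 0.14, which was 0.0915 without KO replicate 2 and 0.22 without WT replicate 3.

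Bile acid synthesis, which ends in peroxisomes, had no called gene. Of 17 genes of synthesis and conjugation, 14 were below 0, with a median of −0.17 and 1 lower gene at an unadjusted p under 0.05. The median was −0.0454 without KO replicate 1, −0.27 without KO replicate 2 and −0.0799 with length offsets. Cyp7a1, the rate-limiting enzyme, stood at 40.2, 76.1, 102 and 159 CPM in WT and at 32.2, 79.5, 81.7 and 115 in KO livers, and the groups overlapped almost fully (−0.29, standard error 0.50). Cyp8b1, which sets the share of cholic acid, stood at 192, 292, 185 and 178 CPM in WT and at 103, 269, 223 and 379.6 in KO livers (0.20, standard error 0.37). Among the 14 genes of bile acid transport and FXR signaling the median was −0.04. The canalicular phospholipid carrier Abcb4 had 0.32 (standard error 0.13) and the basolateral exporter Abcc3 had 0.48 (0.21), with edgeR adjusted p-values of 0.499 and 0.512. Slco1a1, a basolateral uptake carrier, stood at 648, 575, 624 and 517 CPM in WT and at 324, 456, 465 and 282 in KO livers, and all KO livers were lower (−0.63, standard error 0.17, edgeR adjusted p = 0.464).

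**Figure D3:**
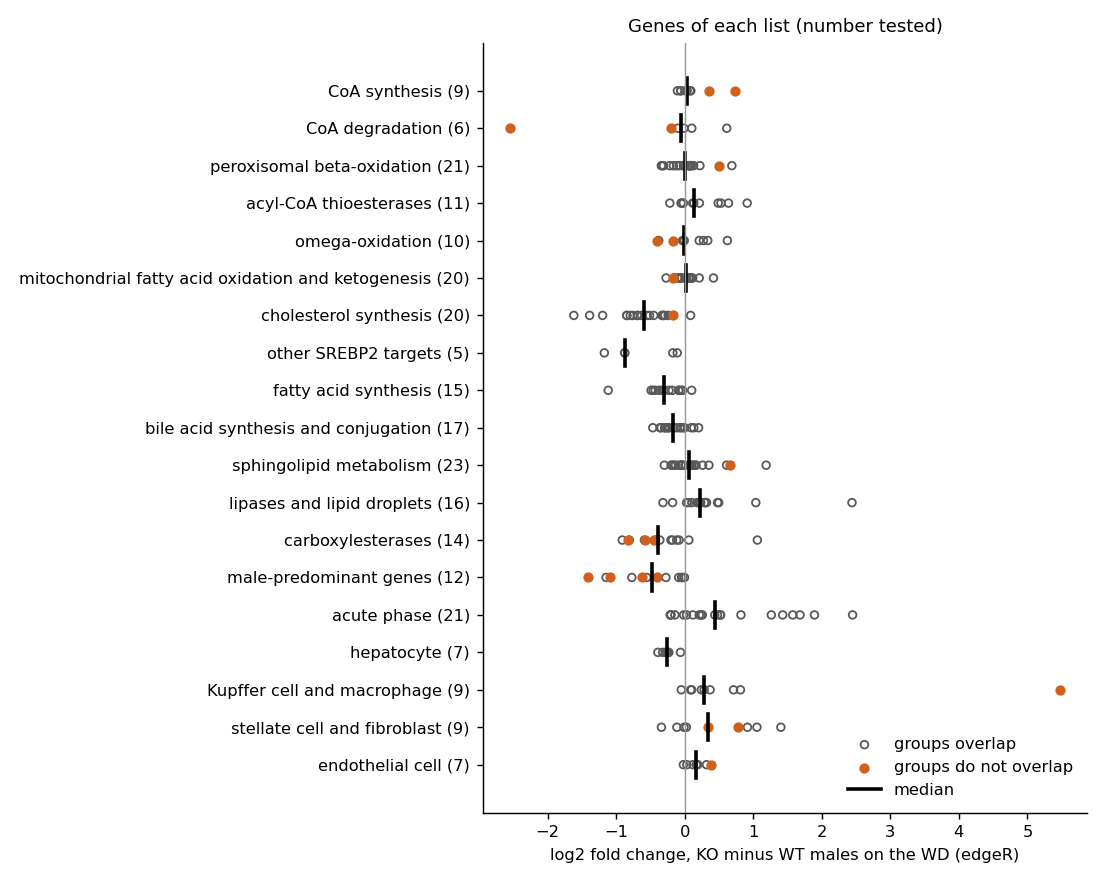
Log2 fold change, KO minus WT, from edgeR (x axis) of each tested gene in 19 of the gene lists (y axis, number tested in brackets). Open points are genes whose groups overlap, filled points those whose groups do not, and the vertical bar is the list's median. The medians of the sterol lists (−0.59 and −0.87), carboxylesterases (−0.40) and male-predominant genes (−0.48) lie left of 0, and those of CoA synthesis and peroxisomal β-oxidation lie at 0.03 and −0.0016.

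The carboxylesterases, which hydrolyze lipid and drug esters in hepatocytes, had lower levels in KO livers in most of the family. Of 14 genes, 12 were below 0 with a median of −0.40, 7 were lower at an unadjusted p under 0.05 and 0 higher, and 3 did not overlap. Ces2a stood at 232, 228, 226 and 178 CPM in WT and at 136, 163, 138 and 139 in KO livers (−0.59, standard error 0.11, adjusted p = 0.317 in edgeR and 0.00419 in DESeq2). Ces3b stood at 490, 349, 571 and 436 CPM in WT and 273, 266, 304 and 195 in KO livers (−0.83, standard error 0.17, DESeq2 adjusted p = 0.0355). Ces1c, the esterase of mouse plasma, stood at 1810, 1929, 1943 and 1734 CPM in WT and 1166, 1534, 1322 and 1434 in KO livers (−0.44, standard error 0.13, DESeq2 adjusted p = 0.0293). Their KO livers were all lower than their WT livers. The summed level of the list was 5758, 5776, 5714 and 5655 CPM in WT and 3933, 4801, 4556 and 4618 in KO livers, also without overlap. Without KO replicate 1 the median was −0.28, and the call of Ces1c was lost (DESeq2 adjusted p = 0.095). Ces1b went the other way in KO replicates 1 and 4, at 112 and 162 CPM, with 40.1 and 25.9 in the other KO livers and 33.9 to 45.7 in WT. The genes of this family are similar in sequence and many stand close together on chromosome 8, so reads may be shared among them. In males on the CD the median of the list was 0.005, in females on the WD 0.02 and in females on the CD 0.01.

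Most genes that male livers express above female livers had lower mean levels in KO livers. All 12 genes of a list of male-predominant liver genes were below 0, with a median of −0.48, and 4 were lower at an unadjusted p under 0.05 and did not overlap. Their log2 fold changes ran from −1.42 to −0.004, so the shift was not uniform. The summed level of the list was 15964, 8410, 9354 and 7308 CPM in WT livers. In KO livers it was 13536, 7851, 8131 and 4496 CPM, with overlap. Hsd3b5, a steroid reductase of male liver, stood at 226, 136, 151 and 159 CPM in WT and 73.8, 68.0, 122 and 51.6 in KO livers (−1.09, standard error 0.27, DESeq2 adjusted p = 0.00973). Ugt2b38, a UDP-glucuronosyltransferase, stood at 10.5, 7.87, 6.75 and 5.86 CPM in WT and 3.57, 1.49, 3.75 and 2.75 in KO livers (−1.42, standard error 0.28, DESeq2 adjusted p = 0.00973). The others without overlap were Slco1a1 and Cyp4a12a, an ω-hydroxylase (−0.40). Of 16 female-predominant genes only 6 had enough counts to be tested, and all 6 were above 0 with a median of 0.83, each with overlapping groups. That median was 0.36 without KO replicate 4 and 0.51 without WT replicate 1, and it was −1.08 in males on the CD. A gene with 10 counts in the 4 KO livers alone passes the filter, so the filter itself can shape the direction of scarce genes. The summed level of all 16, with those not tested, was 15.7, 46.2, 28.3 and 33.8 CPM in WT livers. In KO livers it was 40.2, 49.8, 20.0 and 87.2 CPM, with overlap.

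The same was asked of genes taken from other livers of the series. Between WT females and WT males on the CD, edgeR called 137 of 12505 genes higher in females (1.1%) and 143 lower (1.14%), in 8 libraries that are not part of the KO comparison on the WD. All 143 male-biased genes could be tested there, and 113 had a log2 fold change below 0, with a median of −0.19. At an unadjusted p under 0.05, 35 were lower and 4 higher, and 18 lay wholly below WT against 1 wholly above. Nudt7 and Rassf3 belong to these male-biased genes. So do most genes of the male-predominant list above, among them Hsd3b5, Slco1a1 and Cyp4a12a, so the 143 genes are not a separate check. Of the 137 female-biased genes 109 could be tested, 77 were above 0, and 21 were higher and 5 lower at an unadjusted p under 0.05, with a median of 0.21. The rest fell to the count filter on the compared livers, which a gene can pass through its KO livers alone. The counts by direction of these female-biased genes are thus partly set by the filter. Without WT replicate 1 the median of the male-biased genes was −0.12, and without KO replicate 4 that of the female-biased genes was 0.13. In the other KO comparisons the medians of the male-biased genes were 0.05 in males on the CD, 0.11 in females on the WD and 0.16 in females on the CD, while those of the female-biased genes were 0.08, −0.04 and −0.14. The comparison in males on the CD and that in females on the CD share their WT livers with the contrast that chose these genes.

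Sphingolipid genes had a median of 0.06 over 23 genes, and 4 were higher and 0 lower at an unadjusted p under 0.05. Cers6, a ceramide synthase, stood at 11.1, 18.1, 16.8 and 18.4 CPM in WT and at 22.4, 20.7, 22.3 and 36.3 in KO livers, without overlap (0.65, standard error 0.21, edgeR adjusted p = 0.464). Smpd3, a neutral sphingomyelinase, had 1.19 (standard error 0.39), Acer2, a ceramidase, 0.35 (0.14) and Cerk, the ceramide kinase, 0.61 (0.26). Among lipid handling genes, Cd36, a fatty acid translocase, stood at 77.3, 137, 73.4 and 121 CPM in WT and 194, 193, 129 and 196 in KO livers (0.80, standard error 0.22, DESeq2 adjusted p = 0.0605). Apoa4, an apolipoprotein that livers make more of when they store triacylglycerol, stood at 493, 679, 517 and 373 CPM in WT and at 2868, 1875, 772 and 1205 in KO livers. All KO livers were above all WT livers, and on the log2 scale KO exceeded WT by 1.70 with a standard error of 0.39 (adjusted p = 0.431 in edgeR and 0.0280 in DESeq2). Cidec, a lipid droplet protein of fat-laden livers, stood at 40.8, 13.2, 2.98 and 13.7 CPM in KO and at 1.88, 1.45, 2.16 and 7.53 in WT livers, with overlap.

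Acute phase genes and the markers of several other liver cells were uneven between KO livers, while endothelial markers were more even. Of 21 acute phase genes, 16 were above 0 with a median of 0.44, and 5 were higher at an unadjusted p under 0.05. Without KO replicate 3 the median was 0.0139. Lcn2, lipocalin 2, stood at 17.3, 11.7, 7.22 and 4.93 CPM in WT and at 74.8, 11.3, 95.7 and 41.3 in KO livers (2.45, standard error 0.72, edgeR adjusted p = 0.464), and KO replicate 2 stayed within the WT range. The metallothionein Mt2, which DESeq2 called (adjusted p = 0.0454, or 0.156 without KO replicate 1), stood at 1.33, 1.91, 0.844 and 1.39 CPM in WT and at 5.39, 1.86, 3.52 and 10.0 in KO livers, and there too KO replicate 2 fell among the WT livers. All 7 hepatocyte markers were below 0 with a median of −0.26 (−0.41 without KO replicate 2), and their sum ran from 56920 to 63692 CPM in WT and from 44361 to 64518 in KO livers, where KO replicate 2 was the highest. In whole liver, fewer cells of a type and less RNA per cell cannot be told apart. Of 9 tested macrophage markers, 8 were above 0 with a median of 0.28 (0.19 without WT replicate 4, 0.50 without WT replicate 2 and 0.43 without KO replicate 2), and their sum was 255 to 400.2 CPM in WT and 253 to 498 in KO livers. Of 9 stellate cell and fibroblast markers, 6 were above 0 with a median of 0.33 (0.81 without WT replicate 4), and their sum was 314 to 362 CPM in WT and 595, 361, 340 and 347 in KO livers. KO replicate 1 thus stood alone, and in it Col1a1 and Col3a1, the chains of fibrillar collagen, reached 37.4 and 113 CPM against 6.94 to 8.11 and 35.4 to 43.0 in the other KO livers. The 7 endothelial markers had a median of 0.17. Their sum was 267.1 to 311.3 CPM in WT and 312.1 to 342.5 in KO livers, narrowly without overlap. Among them Stab2, a scavenger receptor of sinusoids, was higher in all 4 KO livers (0.38, standard error 0.09, edgeR adjusted p = 0.386). No neutrophil or pancreatic acinar marker had enough counts to be tested. The summed acinar markers were 47.4 and 17.7 CPM in WT replicates 1 and 4 and 0.75 to 7.18 in the other 6 livers. The part of these cells in the differences above was not tested.

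The Y-linked genes Ddx3y, Eif2s3y, Kdm5d and Uty were present in all 8 livers, as the male label asks. Their summed level was 188 to 211 CPM in WT and 154 to 193 in KO livers. Nnt, which is altered in C57BL/6J and intact in other strains, stood at 17.3, 53.0, 47.6 and 49.0 CPM in WT and at 61.1, 46.9, 36.8 and 58.5 in KO livers, and WT replicate 1 was the low one.

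Chromosome 8, which carries Nudt7, held more DESeq2 calls than any other chromosome. DESeq2 with length offsets called 12 of its 658 tested genes (1.82%), against 0.398% of all genes, and the next chromosome by share, chromosome 2, had 7 of 964 (0.726%). Nudt7 and the carboxylesterases Ces2a, Ces3b and Ces1c were among the 12. Without KO replicate 1 most of the 12 calls were lost. Ciapin1, Bco1, Gas6, Mt2 and Ces1c were among those lost (DESeq2 adjusted p from 0.0546 to 0.156). Nudt7 itself, Ces2a and Ces3b were among those kept, the last 2 narrowly (DESeq2 adjusted p = 0.0398 for each). Groups did not overlap in 45 genes of chromosome 8 (6.84%), the highest share of 20 chromosomes but close to those of chromosomes 3 (6.83%) and X (6.72%). By distance from Nudt7, groups did not overlap in 4 of 52 genes within 5 Mb (7.69%), in 10 of 187 genes from 5 to 20 Mb (5.35%) and in 30 of 418 genes beyond that (7.18%).

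Several of the genes named above lie on this chromosome. Ciapin1 is 19.3 Mb before Nudt7. Its log2 fold change was also above 0 in the other KO comparisons, at 0.67 in males on the CD, 0.57 in females on the WD and 0.38 in females on the CD, and edgeR called none of these (adjusted p = 0.246, 0.217 and 0.701). Bco1, which splits β-carotene and lies 3.0 Mb past Nudt7, stood at 6.98, 5.42, 8.81 and 7.53 CPM in WT and at 13.5, 12.6, 11.1 and 11.2 in KO livers (0.75, standard error 0.16, DESeq2 adjusted p = 0.0164, or 0.139 without KO replicate 1), and it had 0.94, 0.39 and 0.40 in the other comparisons, in the same order. Gcsh, a subunit of the glycine cleavage system 2.8 Mb past Nudt7, chosen here after its values were seen, stood at 80.6, 83.7, 67.2 and 53.2 CPM in WT and at 44.3, 52.1, 47.8 and 46.6 in KO livers, without overlap. Its log2 fold change was −0.58, with −0.49, −0.30 and −0.51 in the other comparisons. Ces2a and Ces3b, by contrast, had log2 fold changes of −0.09 and 0.29 in males on the CD.

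**Figure D4:**
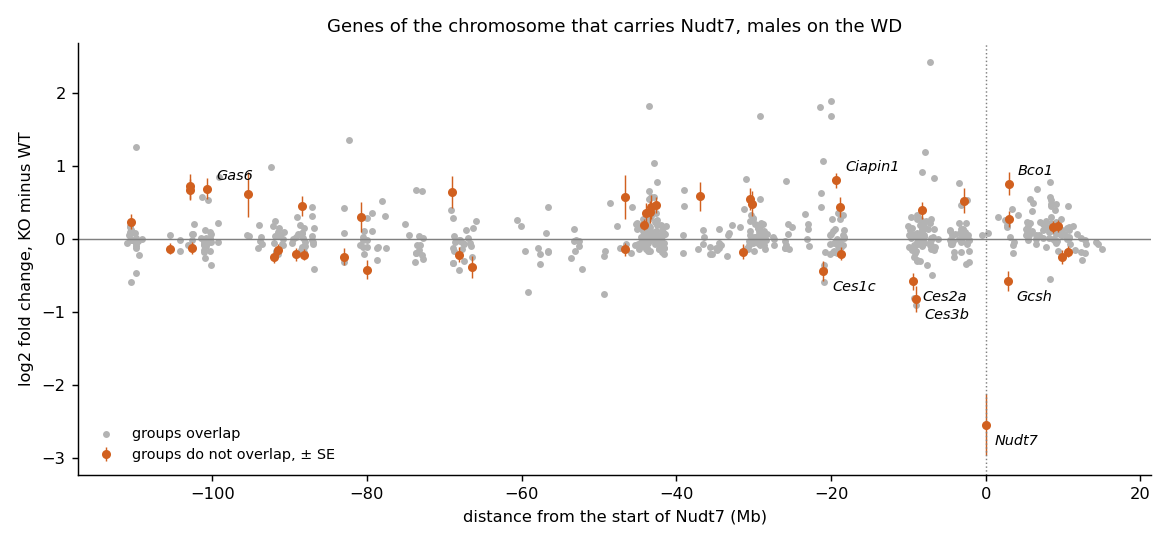
Log2 fold change, KO minus WT, from edgeR (y axis) of the tested genes of chromosome 8 against the distance of their start from that of Nudt7 in Mb (x axis). Grey points are genes whose groups overlap, orange points those whose groups do not, with the standard error. Nudt7 is the lowest point at −2.55, and genes without overlap lie along the whole chromosome, 30 of 45 of them more than 20 Mb away.

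The effect of the genotype was then set against that in the other groups, with the difference itself tested in the model of all 32 libraries. Between the diets in males, edgeR called 8 of 13539 genes (0.0591%), and 1613 passed before adjustment (11.9% at p under 0.05). DESeq2 with length offsets called 21 (0.155%). Between the sexes on the WD it called 2 (0.0148%), and 1091 passed before adjustment (8.06%), while DESeq2 called 25 (0.185%). With only the 16 libraries of the diet contrast edgeR called 0, with 1569 at an unadjusted p under 0.05, and with the 16 of the sex contrast it called the same 2. For scale, the KO comparison in males on the CD had 1 edgeR call of 12289 genes (0.00814%) and 18 by DESeq2 (0.146%). In females on the WD there were 2 of 12824 (0.0156%) and 58 (0.452%), and in females on the CD 4 of 12753 (0.0314%) and 19 (0.149%).

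Rassf3 differed by diet and by sex. Scaled over all 32 libraries, it stood at 93.1, 89.4, 86.6 and 83.2 CPM in WT and 82.5, 95.8, 98.1 and 73.9 in KO males on the CD, and its genotype effect there was −0.01. On the WD it was −0.80, and the difference of −0.80 (standard error 0.13, edgeR adjusted p = 0.0116) was called in each of 16 fits that left out 1 library. In females on the WD, where WT livers had 45.4 to 50.9 and KO livers 45.7 to 52.7 CPM, the effect was 0.01 and the difference −0.82 (standard error 0.13, edgeR adjusted p = 0.0127), called in 11 of 16 such fits. KO males on the WD, at 55.5 to 63.5 CPM, thus stood between the males on the CD and the females. Clec2d was lower in KO males and higher in KO females on the WD, with effects of −0.74 and 0.34 and a difference of −1.08 (standard error 0.20, edgeR adjusted p = 0.037). That call was lost in 11 of 16 fits without 1 library. Apoa4 had an effect of 1.69 on the WD and −0.75 on the CD in males, where WT livers held 794 to 1229 and KO livers 319 to 754 CPM. Its difference of 2.44 (standard error 0.42, edgeR adjusted p = 0.0149) was called in all 16 fits that left out 1 library, and so was that of Abhd17b, a depalmitoylase, at −0.83 (0.14, 0.0116), which DESeq2 did not call (adjusted p = 0.128). Dio1, the deiodinase of liver, had 0.45 on the WD and −0.40 on the CD, and its difference of 0.85 (0.16, edgeR adjusted p = 0.0296) was called in 8 of the 16 fits.

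**Figure D5:**
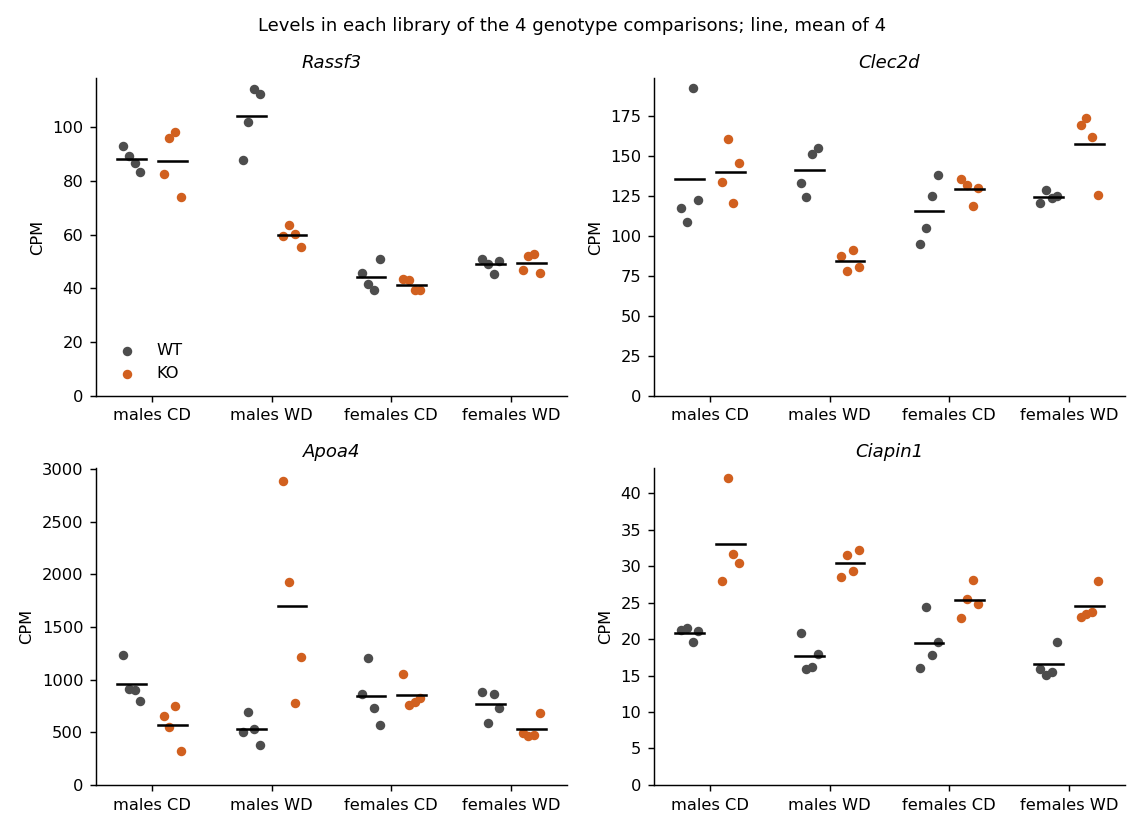
CPM (y axis) in each of the 4 KO and 4 WT libraries for males and females on the CD and the WD (x axis), for 4 genes, scaled over all 32 libraries. Lines are means of 4. In males on the WD the KO points of Rassf3 (55.5 to 63.5) and Clec2d (78.2 to 91.5) lie below all WT points, while Ciapin1 has the higher KO mean in all 4 comparisons.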

How the data were processed

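Liver mRNA was sequenced as 50 bp paired-end reads from KAPA mRNA HyperPrep libraries. The authors ran Salmon 1.3.0 with a decoy-aware GRCm38 index and deposited, for each of 117135 transcripts and each library, the estimated counts, the TPM and the effective length. By the GENCODE vM21 annotation, 115973 of them belonged to 35523 genes, and estimated counts were summed by gene and rounded. The share of counts outside the annotation was 0.315% to 0.368%.

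KO and WT males on the WD were compared with edgeR 4.0.16 (TMM, robust quasi-likelihood F test) in R 4.3.3, over genes with 10 counts or more in 4 libraries or more, at a Benjamini-Hochberg adjusted p under 0.05. The F test gives no standard error, so those printed for edgeR are the absolute log2 fold change divided by the square root of F. Differences of genotype effects between diets and sexes were contrasts in a model of all 32 libraries. DESeq2 1.42.0 with length offsets, close to the authors' DESeq2 1.28.1 with tximport, was an alternative, with those listed under the dependence on processing. On data simulated from these libraries, edgeR and DESeq2 gave a larger share of false calls than the threshold names. DESeq2 did so more, and it recovered more of the small changes. It was run there on gene counts, without the length offsets used for the calls above. Replicates of a group differed by more than sampling noise, with a chi-square per gene of 20.0 to 70.8 between pairs. Their rank correlations were high (Spearman 0.976 to 0.988). Nothing in the labels says that replicates were separate litters or batches, so p-values measure the spread between these libraries.

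Genes named in the text are Nudt7, Nudt8, Nudt19 and Fitm2, the edgeR calls, up to 10 per direction with the smallest p and no overlap or the largest change among DESeq2 calls, up to 4 per list, called genes within 20 Mb of Nudt7, up to 6 per difference, genes the study names for male liver, and Nnt. Genes picked for no overlap, or as DESeq2 calls with the largest change, had a mean log2 CPM above 0. The comparison, gene lists and tests were chosen with earlier results of these data known. Python 3.11.15, pandas 2.3.3 and matplotlib 3.10.9 were also used. Protein and metabolite measurements were not analysed here, and some list members are not reported here by name.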

Additional observations from a re-analysis of the deposited data

Results flagged for a closer look

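In 22 of 148 groups of 4 libraries, 1 library stood far from the others by Dixon's criterion. Its usual chance rate of about 1 in 20 is no yardstick here, since many of these genes were picked by their values in these libraries. KO replicate 1 accounted for 8 of the 22. It was high for Gpnmb (62.3 CPM, others 1.301 to 1.94), Mmp12 (54.6, others 4.13 to 12.3), Ifi27l2b (20.9, others 8.88 to 10.6), Ttc39a (7.30, others 1.501 to 1.86), Sqle (2.22, others 0.612 to 0.834), Pdgfrb (22.7, others 12.6 to 13.8), Col3a1 (113, others 35.4 to 43.0) and Col1a1 (37.4, others 6.94 to 8.11). KO replicate 4 was high for Abcc3 (368 CPM), Cers6 (36.3) and Gpat3 (14.2), a glycerol-3-phosphate acyltransferase, and low for Acer2 (14.4). KO replicate 2 was high for Ces2a (163 CPM), Pank2 (33.3) and the Y-linked Ddx3y (97.6), and KO replicate 3 was low for Cd36 (129) and high for the Y-linked Eif2s3y (55.5). Among WT livers, replicate 4 was low for Ces2a (178 CPM) and high for Cerk (5.95) and Cidec (7.53), replicate 2 was high for Cyp8b1 (292) and replicate 1 low for Nnt (17.3).

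The genotype effect passed as different between groups for 9 genes in the edgeR test of the difference in the model of all 32 libraries. Between the WD and the CD in males the log2 difference was −0.80 for Rassf3, −0.83 for Abhd17b, 2.44 for Apoa4, 0.85 for Dio1, −4.37 for Ugt2b38, −0.82 for Ogfrl1, 1.98 for Sbk1 and −2.85 for Adgrf1, an adhesion receptor. With only the 16 libraries of the diet contrast edgeR called 0 of these 8. Without 1 library in turn, edgeR called Rassf3, Abhd17b and Apoa4 in all 16 fits, Dio1 in 8, Ugt2b38 in 9, Sbk1 in 7 and Ogfrl1 and Adgrf1 in 6 each, and DESeq2 did not call Abhd17b (adjusted p = 0.128). For Ugt2b38 the level in KO males on the CD rested on 1 library, with 24.7 CPM against 2.73 to 3.42 in the others. For Abhd17b, Apoa4, Dio1, Ugt2b38, Ogfrl1, Sbk1 and Adgrf1 the effects on the diets had opposite signs. Between males and females on the WD the difference was −0.82 for Rassf3 and −1.08 for Clec2d.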

How the results depend on the processing

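The count of called genes depended on the tool. Against 2 genes in edgeR, DESeq2 called 49 with length offsets and 54 on gene sums, 32 of them shared, and the model of all 32 libraries called 39. No filter gave 5 calls. Length offsets in edgeR, RLE size factors and a fit without robust estimation gave 0 each, with 971, 1188 and 1219 genes at an unadjusted p under 0.05. Leaving out 1 library gave 0 to 2 calls. Chosen after seeing the data, DESeq2 without KO replicate 1 called 42 and the model of all libraries without it 3.

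Libraries with the same replicate number were not clearly alike (correlations of 0.0678, −0.189, 0.0433 and 0.0804, with 3 of 8 libraries closest to their own number). So few pairs cannot show whether mice shared a litter or batch, which the labels do not give. With the replicate block edgeR called 1 gene, Ifi27l2b, and 8 and 3 for the diet and sex differences.

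For the diet difference, against 8, gene sums in DESeq2 gave 72 and its length offsets 21. In edgeR the count was 5 when offsets were used, 2 without a filter and 0 with 16 libraries (1569 at an unadjusted p under 0.05), and 3 to 33 without 1 library. For the sex difference, against 2, DESeq2 gave 22 on sums and 25 with offsets and edgeR 1 with offsets, with 4 under RLE size factors and 0 to 15 without 1 library.

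Of 72 genes named that had a value under all 19 alternatives, 60 kept their direction in each. Gpnmb and Ttc39a could be fitted in 14 and kept theirs in those. Without 1 library Nudt8 ran from −0.15 to 0.0698, Fitm2 from −0.0372 to 0.34, Scd1 from −0.89 to 0.0254, Cyp7a1 from −0.54 to 0.0827, Cyp8b1 from −0.0905 to 0.46, Cyp4a10 from −0.0620 to 0.81 and Cyp4a14 from −0.51 to 0.87, all log2. Pank1 ran from −0.125 to 0.0644, Pank2 from −0.0350 to 0.0663, Pank3 from −0.161 to 0.116 and Uty from −0.148 to 0.0218. Pank3 was at −0.0137 with the replicate block and −0.00154 in the model of all libraries, and Uty at 0.146 and 0.148 with length offsets in DESeq2 and edgeR. Without KO replicate 1, DESeq2 gave 0.21 for Cyp7a1, 0.0716 for Pank1, 0.0391 for Pank4 and 0.205 for Uty, and the model of all libraries 0.0531 for Pank1 and 0.0105 for Uty. The causes were not tested. Depth left 6 of 16 female-predominant genes and 0 neutrophil or acinar markers with enough counts to test.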
